A study of Homo sapiens with 7 samples.

Results

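Guide 1, 1 of 2 guide RNAs aimed at a regulatory region of TMCC2, was compared with a non-targeting guide in HUDEP-2 cells, an immortalised human line of erythroid progenitors from cord blood. The comparison takes the 2 libraries labelled with guide 1 and the 3 labelled with the non-targeting guide, 5 of the 7 libraries of the study, over all genes of the table of read counts. The fit was made with the 3 non-targeting libraries and again without non-targeting replicate 1, which stands apart from the others. The 2 libraries of guide 2 entered the filter, the scaling and the estimate of the spread, and were used to test where guide 1 differed from guide 2.

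All groups share 1 cell line, lentiviral infection for CRISPR interference, and 72 h of differentiation toward red cells, in medium that held erythropoietin at 3 IU/ml. The expansion medium before that held stem cell factor, erythropoietin, dexamethasone and doxycycline. The labels place the target of guides 1 and 2 upstream of the isoform of TMCC2 that erythroid cells use. They do not say whether replicates were separate cultures or infections, so a p-value here measures spread between libraries, and that spread may be technical. Uninfected cells were not analysed here, and the non-targeting group is 1 guide sequence.

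In CRISPR interference, a Cas9 without nuclease activity is joined to a repressor and carried to DNA by the guide RNA, where it lowers transcription without cutting. TMCC2 encodes a membrane protein of the endoplasmic reticulum with coiled-coil domains, and its RNA becomes abundant as erythroid cells mature. FOS and DUSP1 are immediate early genes: signals through MAP kinases switch them on within minutes with no need for new protein. FOS makes a subunit of the transcription factor AP-1, and DUSP1 makes a nuclear phosphatase that switches MAP kinases off, so the pair forms the output and the brake of 1 pathway.

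The guides are shown because the comparison rests on them; no base is in capitals, since the genome around the target was not analysed here.
guide 1: gtcgtgctgcaggtgaagtg
guide 2: ccatccttcagagtaaacag
non-targeting: atcgcgaggacccgttccgcc
Guide 1 is 20 bases long with 60.0% G and C, and the non-targeting guide is 21 bases long with 71.4%. Neither had an exact match, on either strand, in 206694 GENCODE v29 transcripts or in 35116 RefSeq promoter windows (GRCh38).

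Library totals ran from 9780800 to 11350113 counts. The 12 erythroid markers were all abundant enough to test, and their summed level was 267602 to 268535 CPM (counts scaled to the same fixed total in each library) with guide 1 and 233804 to 265858 CPM in the non-targeting libraries. Most of each sum was HBB, at 201476 and 201474 CPM with guide 1 and 170684 to 195965 CPM in the non-targeting libraries. With the scaling used for the tests, guide 1 lay wholly above the controls for 0 of the 12 markers and wholly below for 2. Over all genes tested these shares were 11.3% and 10.3%. Non-targeting replicate 1 had the lowest median Spearman correlation with the other libraries, 0.982 against 0.989 to 0.991. Its deviation from the mean of all libraries followed the GC content of transcripts across genes (Spearman -0.69, against -0.32 to 0.43 in the other libraries). Guide 2 replicate 2 was the library at -0.32, and the guide 1 libraries were at 0.42 and 0.28. The 2 guide 1 libraries were the closest of the 21 pairs of libraries by a small margin. Their log2 levels differed with an SD of 0.290 over genes, against 0.292 for guide 1 replicate 2 and guide 2 replicate 1. The SD was 0.304 for non-targeting replicates 2 and 3, and also for non-targeting replicate 2 and guide 1 replicate 2. For non-targeting replicates 1 and 2 it was 0.446. The biological coefficient of variation over all groups was 12.5% with all libraries and 6.06% without non-targeting replicate 1. Markers of neutrophils and monocytes summed to 2.73 to 3.26 CPM without and 2.85 to 3.35 CPM with guide 1, with MPO, S100A8 and S100A9 at 0 counts in every library, and 6 of 10 lymphocyte markers were at 0.

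The first question was whether guide 1 lowered TMCC2. TMCC2 lies at chr1:205228176-205285632 on the plus strand (GRCh38, GENCODE v29), with 10 annotated transcripts, and the counts do not separate its isoforms. In the order of replicate number it stood at 832, 839 and 937 CPM in the non-targeting libraries and at 229 and 219 CPM with guide 1; from here on, CPM is relative to library sizes scaled by TMM, a method that balances composition between libraries. The groups were far apart, and the guide 1 libraries held 25.8% of the non-targeting mean. By edgeR's quasi-likelihood test the log2 fold change was -1.96, with an SE of 0.12, a 95% interval of -2.21 to -1.71 and a Benjamini-Hochberg adjusted p of 8.58e-07. Without non-targeting replicate 1 it was -1.99 (SE 0.07). In bulk RNA, a lower level in every cell and a loss in some of the cells cannot be told apart.

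**Figure D1:**
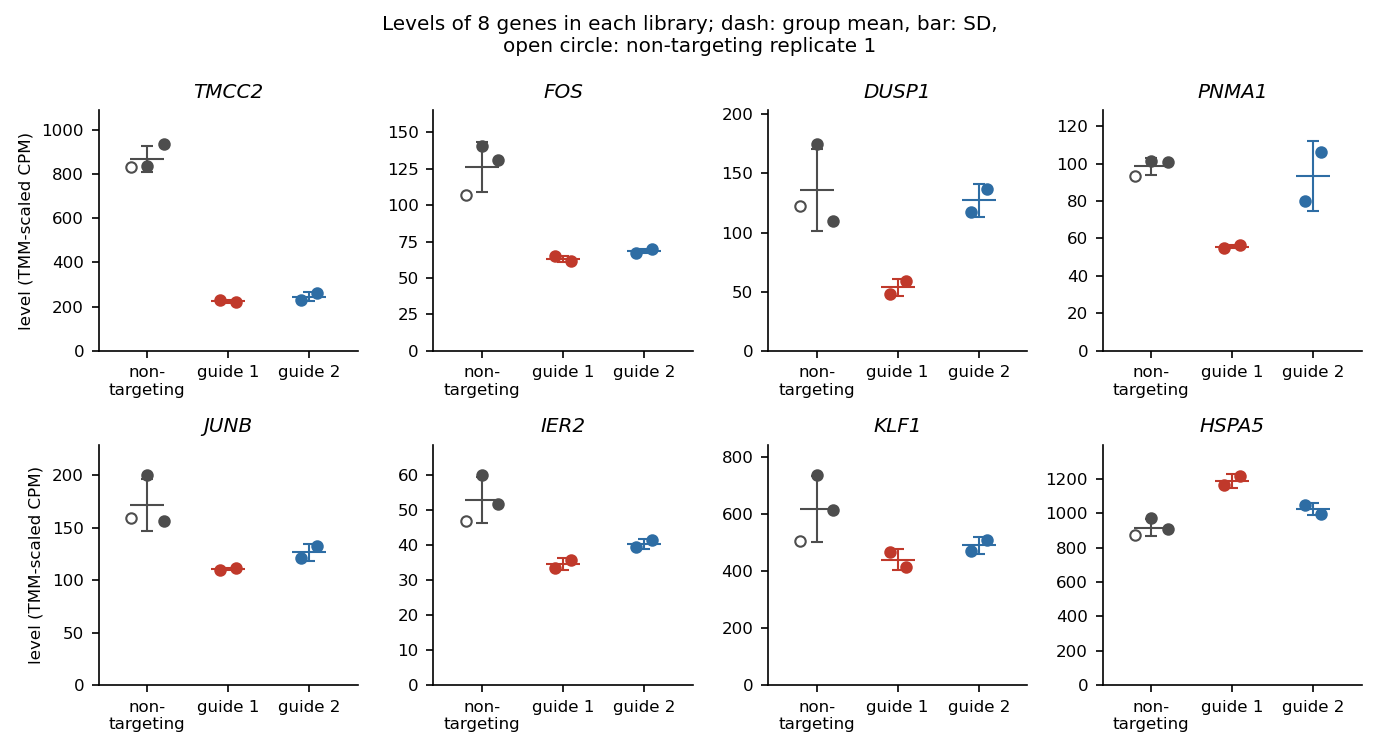
Levels of 8 genes in TMM-scaled CPM (vertical axes, from 0) in the 3 non-targeting, 2 guide 1 and 2 guide 2 libraries; dashes are group means, bars are SDs and the open circle is non-targeting replicate 1. With guide 1, TMCC2, FOS, DUSP1, PNMA1, JUNB, IER2 and KLF1 lie below every non-targeting library and HSPA5 lies above, while guide 2 is near the non-targeting level for DUSP1 and spread across it for PNMA1.

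Genes around TMCC2 on chromosome 1 did not pass with it. Of 21 genes taken as regional, 11 could be tested and TMCC2 was the 1 called, where called means an adjusted p under 0.05 over all genes tested. The other 10 had log2 fold changes between -0.47 and 0.61. LRRN2, a leucine-rich repeat protein of the region, was at 12.1, 17.4 and 15.8 CPM without and 19.5 and 20.5 CPM with guide 1, a log2 difference of 0.40 (SE 0.17), and 0.26 (SE 0.14) without non-targeting replicate 1. Its 2 groups did not overlap, but it was not called in either fit (adjusted p = 0.877 and 0.724, edgeR). Of 15 tested genes of the TMCC family and of proteins that shape the endoplasmic reticulum, 0 were called with all libraries. Their median log2 fold change was 0.14, against -0.01 for all genes tested. That median was 0.01 without non-targeting replicate 1, where 1 member, RTN3, was called higher.

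Over the whole transcriptome, 3 of 10212 tested genes were called with all libraries, 0.0294% of them. TMCC2, FOS and DUSP1 fell and 0 genes rose. Before adjustment, p was under 0.05 for 201 higher genes (1.97%) and 287 lower genes (2.81%), together 4.78%. Guide 1 libraries stood wholly above the non-targeting libraries for 1152 genes (11.3%) and wholly below for 1056 (10.3%). Without non-targeting replicate 1, 59 of 10107 genes were called, 0.584%: 10 rose (0.0989%) and 49 fell (0.485%). The 3 genes called with all libraries were among the 59, and all 59 had the same sign in both fits. Guide 1 libraries then stood above both remaining controls for 19.4% of genes and below for 18.7%. The shares called over all genes are those to set beside the counts of called list members below.

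FOS, the AP-1 subunit, fell in both fits. Its levels were 107, 141 and 131 CPM in the non-targeting libraries and 64.7 and 61.8 CPM with guide 1. The lowest control, replicate 1, was still well above both guide 1 libraries. With all libraries FOS had a log2 fold change of -0.995 (SE 0.13, 95% interval -1.28 to -0.71, adjusted p = 0.0111, edgeR) and -1.10 (SE 0.09) without non-targeting replicate 1. With all other libraries kept, FOS lost its call without non-targeting replicate 3 (adjusted p = 0.0634, edgeR), guide 1 replicate 1 (adjusted p = 0.756) or guide 1 replicate 2 (adjusted p = 0.897).

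DUSP1, the phosphatase, fell further than FOS and was more variable among the controls. It stood at 123, 175 and 110 CPM in the non-targeting libraries and at 48.3 and 58.7 CPM with guide 1. The controls differed among themselves by more than the guide 1 libraries did, and the lowest control was above both guide 1 libraries. With all libraries DUSP1 had a log2 fold change of -1.35 (SE 0.18, 95% interval -1.74 to -0.95, adjusted p = 0.0111, edgeR), and -1.42 (SE 0.13) without non-targeting replicate 1. The call was lost without guide 1 replicate 1 (adjusted p = 0.826, edgeR) or replicate 2 (adjusted p = 0.196), each with all non-targeting libraries kept, and with total counts in place of TMM (adjusted p = 0.131).

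Other immediate early genes did not move as 1 block. Of 27 on the list 21 were tested, with 10 above and 11 below 0 and a median log2 fold change of -0.01, the same as over all genes. The guide 1 libraries lay below every control for 7 of them, beside 10.3% of all genes, and above for 3, beside 11.3%. FOS was the 1 member called with all libraries; without non-targeting replicate 1 FOS, JUNB, IER2 and EGR1 fell, 4 of 20 tested beside 0.485% of all genes, and 0 rose. JUNB, an AP-1 partner of FOS, was at 159, 200 and 156 CPM without and 110 and 111 CPM with guide 1. IER2, a small nuclear regulator, was at 46.9, 59.9 and 51.7 CPM against 33.4 and 35.7 CPM, and EGR1, a zinc finger factor, at 85.9, 88.9 and 69.2 CPM against 54.3 and 60.3 CPM. For all 3 genes the guide 1 libraries lay below each of the 3 controls. Their log2 fold changes with all libraries were -0.64 (SE 0.13), -0.61 (SE 0.14) and -0.51 (SE 0.14), with adjusted p of 0.434, 0.707 and 0.877 (edgeR), and without non-targeting replicate 1 they were -0.69, -0.70 and -0.47, with adjusted p of 5.9e-06, 0.000169 and 0.0166. Over 13 settings of the fit without non-targeting replicate 1, FOS and JUNB were called in 13, IER2 in 12 and EGR1 in 9. Some of these settings leave 1 library in a group. EGR1 also lost its call with total counts in place of TMM. FOSB, present at 3.27 to 4.85 CPM in the controls, was at 2.76 and 1.68 CPM with guide 1 and was not called. ATF3 went the other way, at 25.4, 29.7 and 28.2 CPM without and 35.5 and 32.2 CPM with guide 1, a log2 difference of 0.29 (SE 0.14), or 0.22 (SE 0.12) without non-targeting replicate 1, that was not called either.

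Among 12 tested MAP kinase phosphatases and feedback inhibitors, 10 were below 0 and 2 above with all libraries, with a median of -0.21. Without non-targeting replicate 1, 8 were below 0 and 4 above, with a median of -0.18. DUSP1 was the 1 called in each fit. Several members rested on few reads, with control means of 1.20 to 1.34 CPM for SPRY1, DUSP2, DUSP7 and DUSP16. DUSP6, which acts on ERK, stood at 34.9, 29 and 35.4 CPM in the controls and 31.2 and 24.3 CPM with guide 1, so its groups overlapped. DUSP14 was at 3.53, 2.34 and 4.74 CPM against 1.97 and 2.24 CPM and did not pass. DUSP3, another phosphatase of this family, lay above every control, at 1.77, 1.35 and 1.40 CPM without and 2.95 and 2.80 CPM with guide 1. Its log2 fold change was 0.92 (SE 0.33), and 1.06 (SE 0.39) without non-targeting replicate 1, not called in either fit, from 30 reads in each guide 1 library. The kinases and nuclear targets of the cascade had a median of -0.02 over 26 tested genes with 0 called in either fit. Of 18 tested genes of erythropoietin receptor and KIT signalling, which feed this cascade in erythroid cells, 0 were called. The receptor gene EPOR was at 325, 389 and 356 CPM without and 317 and 303 CPM with guide 1 (log2 -0.20, SE 0.11; -0.27 without non-targeting replicate 1). JAK2, the kinase bound to that receptor, was at 58.6, 43.1 and 40.9 CPM against 31.7 and 30.9 CPM (log2 -0.60, SE 0.17; -0.43 without non-targeting replicate 1, adjusted p = 0.0738, edgeR). Both lay below every control without passing. The list as a whole did not lie low: 10 of its 18 tested genes were above 0, with a median of 0.004. Without non-targeting replicate 1, 7 were above 0 and the median was -0.05. With all libraries, guide 1 lay wholly below the controls for 3 members and wholly above for 2, beside 10.3% and 11.3% of all genes.

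The promoters of the 2 called immediate early genes are shown because both genes are classic targets of factors that bind the cyclic AMP response element, whose core is TGACG. Each sequence covers the 250 bases before the transcription start in RefSeq (GRCh38.p14), read on the strand of the gene, with TGACG or its reverse complement in capitals. FOS is at chr14:75278578-75278827 (plus strand) and DUSP1 at chr5:172771196-172771445 (minus strand).
FOS: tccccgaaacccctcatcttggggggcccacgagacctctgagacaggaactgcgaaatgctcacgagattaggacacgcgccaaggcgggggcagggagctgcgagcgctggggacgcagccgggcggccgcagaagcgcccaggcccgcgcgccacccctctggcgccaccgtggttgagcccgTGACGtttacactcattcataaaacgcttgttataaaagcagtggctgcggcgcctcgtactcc
DUSP1: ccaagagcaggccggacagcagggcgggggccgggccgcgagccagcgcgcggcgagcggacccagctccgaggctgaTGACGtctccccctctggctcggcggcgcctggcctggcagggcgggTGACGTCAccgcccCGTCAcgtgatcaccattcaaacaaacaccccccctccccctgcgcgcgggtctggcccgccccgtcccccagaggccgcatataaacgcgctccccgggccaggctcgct
The core occurs 1 time in FOS, 64 bases before the start, and 4 times in DUSP1, where 2 matches overlap to form the palindrome TGACGTCA at 125 bases before the start. JUNB and IER2 hold 1 match each and EGR1 holds 2. Of all 27305 genes with a window, 24.9% hold the core on either strand and 2.03% the palindrome. Of the 19 listed immediate early genes with a window 13 hold the core, those called without non-targeting replicate 1 and others that were not called. A match of letters is a description of the sequence and not a measured binding site.

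Of the 59 genes called without non-targeting replicate 1, 23 differed by at least 0.5 on the log2 scale and 4 by at least 1: TMCC2, KLC3, DUSP1 and FOS. Non-targeting replicate 1 did not enter that fit. It lay with or beyond the other 2 controls for 24 of the 59 genes, between them and the guide 1 libraries for another 24, and within or past the guide 1 libraries for 11. The alternatives were run on this fit too, and TMCC2, FOS, DUSP1, PNMA1, JUNB, KLF1 and ATP5D were the 7 genes called under each of the 12. Leaving out 1 more library made 12 calls without non-targeting replicate 2, 47 without replicate 3, 16 without guide 1 replicate 1 and 14 without guide 1 replicate 2, of which 12, 35, 15 and 14 were among the 59. Genes that lost their calls whichever 1 of these 4 libraries was left out included DDIT3, HMOX1, XK, NDC80, RTN3, TP53INP1, TSC22D3 and PRNP. HSPA5 lost its call without non-targeting replicate 3 (adjusted p = 0.133, edgeR), guide 1 replicate 1 (adjusted p = 0.0649) or guide 1 replicate 2 (adjusted p = 0.366).

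**Figure D2:**
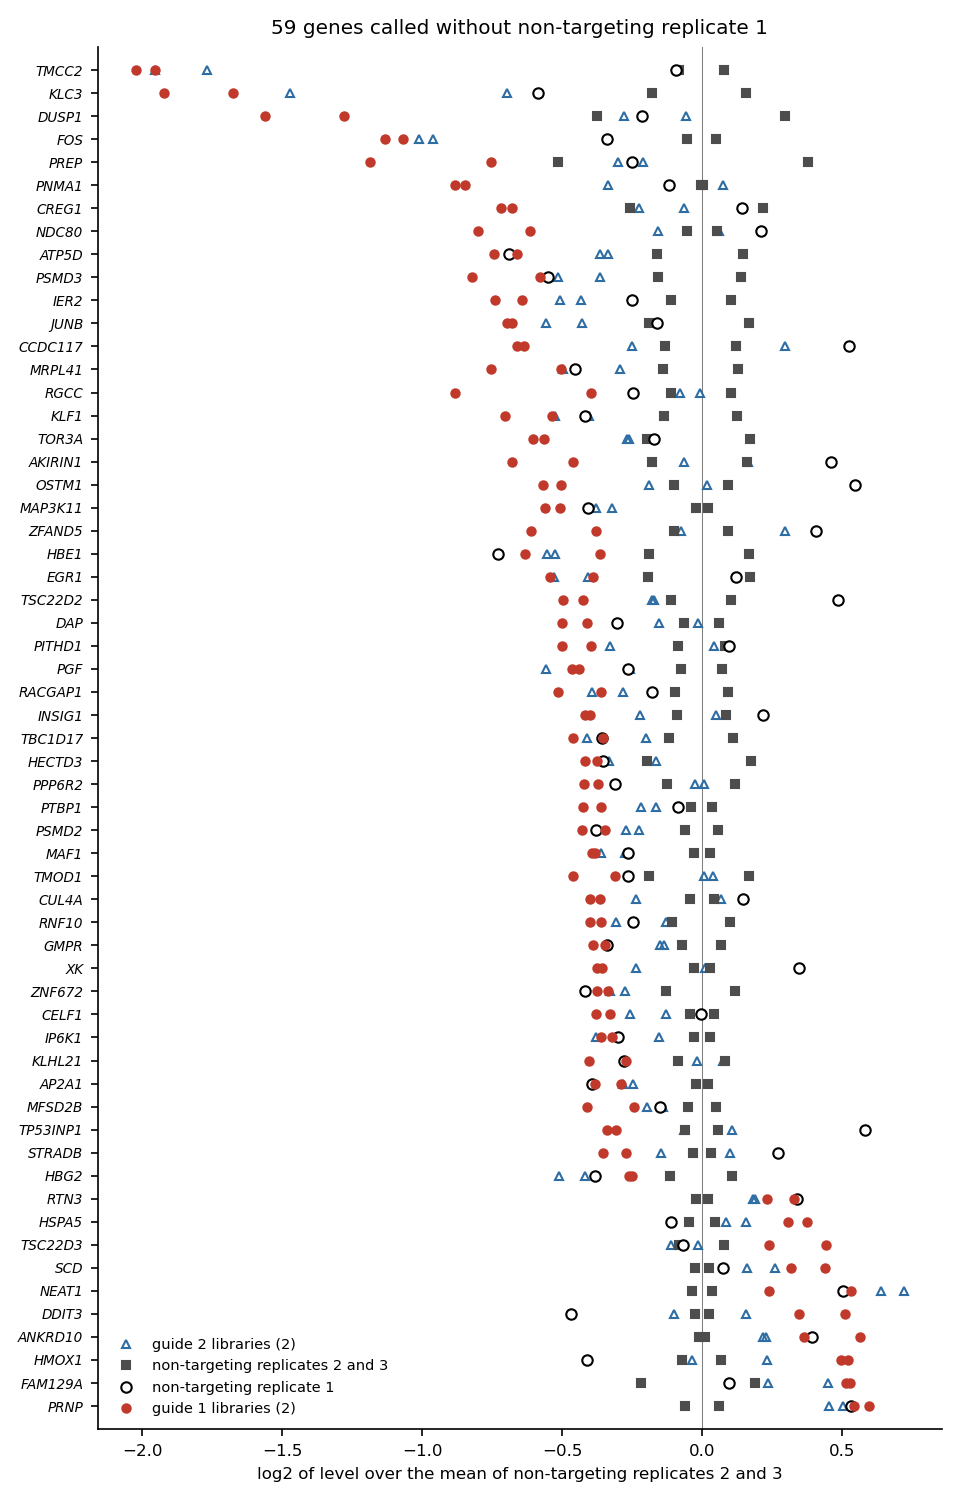
The 59 genes called without non-targeting replicate 1, as log2 of each library's level over the mean of non-targeting replicates 2 and 3 (horizontal axis), ordered by fold change. Red points are the 2 guide 1 libraries, squares are non-targeting replicates 2 and 3, the open circle is non-targeting replicate 1 and triangles are the 2 guide 2 libraries. The open circle lies within or past the red points for 11 genes, ATP5D and HBG2 among them.

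PNMA1, a member of a family of retroviral Gag-like proteins, was the gene closest to a call with all libraries. Its levels were 93.4, 101 and 101 CPM in the controls and 55.0 and 56.3 CPM with guide 1. The 2 groups were tight and well apart. The fitted log2 difference for PNMA1 was -0.83 (SE 0.14, adjusted p = 0.0745, edgeR), and -0.86 (SE 0.10, adjusted p = 8.79e-07) without non-targeting replicate 1. KLC3, a light chain of the kinesin motor, had the largest fold change of the genes that joined, at 3.97, 6.66 and 5.28 CPM against 1.58 and 1.87 CPM. Its log2 fold change was -1.61 (SE 0.34) with all libraries and -1.79 (SE 0.32, adjusted p = 0.00256, edgeR) without non-targeting replicate 1, from 16 and 20 reads in the guide 1 libraries. KLC3 lost that call when non-targeting replicate 2 or guide 1 replicate 1 was also left out. It was the 1 gene called of 22 tested for kinesin light chains and microtubules, beside 0.584% of all genes in that fit.

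ATP5D, the delta subunit of mitochondrial ATP synthase, fell in the second fit and was not called in the first. It stood at 100, 179 and 145 CPM in the controls and 96.6 and 102 CPM with guide 1, so non-targeting replicate 1 sat among the guide 1 libraries. The fitted log2 difference was -0.51 (SE 0.18, not called) with all libraries and -0.70 (SE 0.09, adjusted p = 2.31e-06, edgeR) without that replicate. PSMD2 and PSMD3, subunits of the proteasome's regulatory particle, fell in the same fit by 0.39 and 0.70 on the log2 scale (-0.27 and -0.54 with all libraries). For PSMD2, non-targeting replicate 1 was at 285 CPM and the guide 1 libraries at 291 and 275 CPM. PSMD3 was at 23.9, 38.6 and 31.5 CPM in the controls and 23.4 and 19.8 CPM with guide 1. Its groups did not overlap, but non-targeting replicate 1 was only just above guide 1 replicate 1.

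The gene of the erythroid factor KLF1, an activator of adult globin transcription, fell without non-targeting replicate 1. It was at 506, 738 and 615 CPM in the controls and 467 and 415 CPM with guide 1. Non-targeting replicate 1 was the lowest control and lay closer to the guide 1 libraries than to the other controls, without overlap. The log2 fold change was -0.49 (SE 0.14, adjusted p = 0.877, edgeR) with all libraries and -0.62 (SE 0.08, adjusted p = 2.16e-06) without that replicate. KLF1 was the 1 gene called of 23 erythroid transcription factors tested in that fit, beside 0.584% of all genes. The median of the list was -0.06, as it was with all libraries.

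The globin genes and the gene of their chaperone were not called with all libraries, and the 11 tested members of this list had a median of 0.04. Without non-targeting replicate 1, 10 of 11 were below 0, with a median of -0.07 against 0.00 for all genes. In that fit 2 of the 11 were called lower, beside 0.485% of all genes. The embryonic gene HBE1 was at 44.0, 63.9 and 82.0 CPM in the controls and 47.1 and 56.7 CPM with guide 1, and its log2 fold change was -0.49 (SE 0.11, adjusted p = 0.0166, edgeR), against -0.28 (SE 0.20) with all libraries. The fetal gene HBG2 was at 14771, 17786 and 20754 CPM against 16210 and 16087 CPM, with -0.26 (SE 0.06, adjusted p = 0.0224), against -0.14 (SE 0.13) with all libraries. For both genes non-targeting replicate 1 was the lowest control and lay under both guide 1 libraries. In the fit without that replicate, both genes lost their calls when non-targeting replicate 3, the highest control, was also left out. HBE1 also lost its call without guide 1 replicate 1, and HBG2 without either guide 1 replicate. The fetal globin genes are a near-identical pair, and how their shared reads were counted is not given in the sources used here, so the value of HBG2 alone is uncertain. Globin reads made up 23.0% of non-targeting replicate 1 and 25.2% to 26.9% of each other library; the part of this share in the result was not tested.

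Among 26 tested genes of the red cell membrane and its skeleton, 2 fell without non-targeting replicate 1 and 0 rose, beside 0.485% and 0.0989% of all genes. XK, a membrane protein that pairs with the Kell blood group protein, was at 439, 338 and 351 CPM without and 269 and 265 CPM with guide 1. Here non-targeting replicate 1 was the control farthest from guide 1. The log2 fold change was -0.49 (SE 0.13) with all libraries and -0.37 (SE 0.07, adjusted p = 0.00866, edgeR) without that replicate. TMOD1, which caps the short actin filaments of the skeleton, was at 130, 175 and 136 CPM against 113 and 125 CPM, and fell by 0.39 without non-targeting replicate 1 (SE 0.09, adjusted p = 0.0255), with -0.30 (SE 0.14) in the fit of all libraries. The list median moved from 0.03 to -0.06 between the fits. Haem synthesis (19 tested) had medians of 0.03 and -0.03 in the 2 fits and iron handling (15 tested) 0.04 and -0.05, with 0 called in each.

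The genes that rose without non-targeting replicate 1 were HSPA5, DDIT3, HMOX1, SCD, NEAT1, ANKRD10, PRNP, TSC22D3, RTN3 and FAM129A. HSPA5, the main chaperone of the endoplasmic reticulum and a sensor partner of the unfolded protein response, was at 870, 970 and 908 CPM in the controls and 1161 and 1218 CPM with guide 1. Both guide 1 libraries were above all 3 controls by a margin wider than the controls' own range. The log2 fold change was 0.38 (SE 0.10, adjusted p = 0.877, edgeR) with all libraries and 0.34 (SE 0.06, adjusted p = 0.00339) without non-targeting replicate 1. SCD, which desaturates fatty acids in the same membrane, was at 196, 189 and 183 CPM against 232 and 251 CPM, with 0.35 (SE 0.11) in the first fit and 0.38 (SE 0.07, adjusted p = 0.00601) in the second. HMOX1, the enzyme that breaks haem down, was at 37.7, 52.5 and 47.7 CPM against 71.9 and 70.7 CPM, with 0.63 (SE 0.15) and 0.51 (SE 0.10, adjusted p = 0.00601). These 3 genes stood above every control. RTN3, a reticulon that bends tubules of the endoplasmic reticulum, and NEAT1, the long noncoding RNA of paraspeckles, rose by 0.28 and 0.39 in the second fit (0.16 and 0.21 with all libraries), and for both, non-targeting replicate 1 was within or above the guide 1 libraries.

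Other chaperones of that compartment did not pass. Of 23 tested genes for these chaperones and the unfolded protein response, 15 were above 0 with a median of 0.12, and without non-targeting replicate 1 the median was 0.05 and HSPA5 the 1 called. Its promoter is shown because the ER stress response element, which several genes of this group hold, lies in it (in capitals); it was searched as CCAAT and CCACG with any 9 bases between them. The window is chr9:125241344-125241593 on the minus strand, the 250 bases before the start in RefSeq (GRCh38.p14).
HSPA5: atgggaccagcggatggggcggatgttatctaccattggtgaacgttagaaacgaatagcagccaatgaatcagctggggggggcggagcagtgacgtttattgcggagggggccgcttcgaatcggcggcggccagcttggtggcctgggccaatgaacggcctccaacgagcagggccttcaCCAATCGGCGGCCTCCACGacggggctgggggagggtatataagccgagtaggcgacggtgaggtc
Searched on both strands, the element occurs 1 time, 66 bases before the start. It is in 0.0916% of all 27305 genes with a window, and in 7 of the 22 listed chaperone and stress genes with a window. Of those 7, HSPA5 was called without non-targeting replicate 1 and the other 6 were not. A match of letters is again no measured site.

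Targets of ATF4, the factor of the integrated stress response, were the list with the largest share of members above 0 with all libraries, out of 29 lists. Of 22 tested members 20 were above 0, and the median was 0.19 in both fits, against -0.01 and 0.00 for all genes. For 12 members (against 11.3% of all genes) the guide 1 libraries lay above every non-targeting library, and for 0 below. DDIT3, which encodes the stress factor CHOP, was at 45.1, 63.6 and 61.3 CPM in the controls and 79.4 and 88.9 CPM with guide 1. It rose by 0.43 without non-targeting replicate 1 (SE 0.10, adjusted p = 0.0187, edgeR) and was the 1 member called there, a call that was lost whichever 1 of the 4 libraries left in the groups was taken out (adjusted p from 0.0649 to 0.635). The change with all libraries was 0.57 (SE 0.15). Members that were above all controls without a call were PHGDH and SHMT2, enzymes of serine and glycine synthesis, with 0.60 and 0.36 on the log2 scale, and DDIT4, an inhibitor of mTOR signalling, with 0.38. TRIB3 and CHAC1, further stress targets, had 0.30 and 0.32. Non-targeting replicate 1 was the lowest control for DDIT3, DDIT4, SHMT2, CHAC1 and TRIB3, the same library whose levels followed GC content. With all libraries and offsets for transcript GC content the list's median was 0.20. Without non-targeting replicate 1 it was the 0.19 given above. The part of that library's deviation in the list's median was not tested further.

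**Figure D3:**
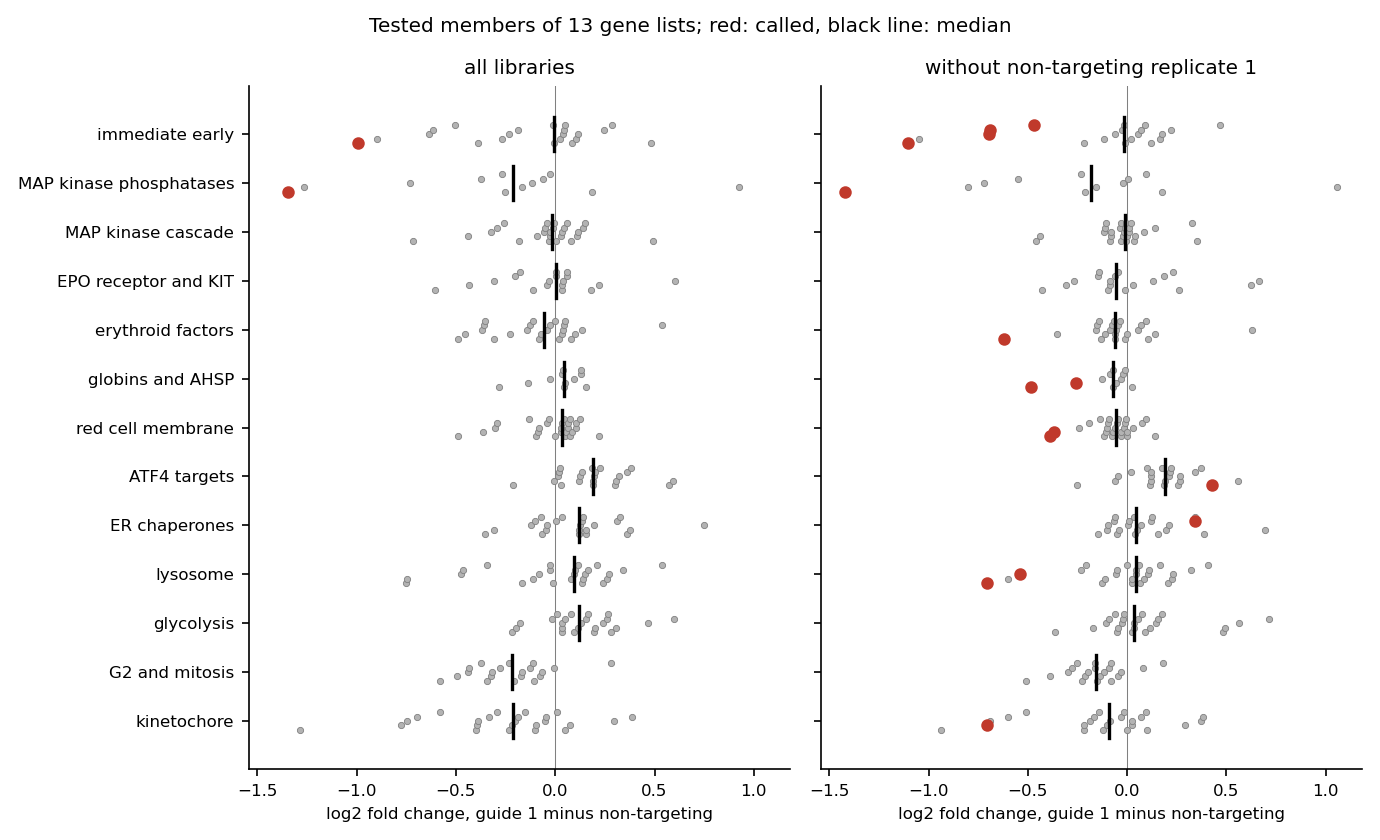
Log2 fold changes, guide 1 minus non-targeting (horizontal axes), of the tested members of 13 gene lists, with all libraries (left) and without non-targeting replicate 1 (right); black lines are medians and red points are called genes. ATF4 targets have a median of 0.19 in both panels, and the red points of the immediate early list go from 1 at left to 4 at right.

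Lysosomal genes lay on both sides of 0. CREG1, a lysosomal glycoprotein, was at 55.3, 58.3 and 41.9 CPM in the controls and 30.4 and 31.3 CPM with guide 1. OSTM1, a subunit of the lysosomal chloride transporter, was at 66.3, 48.5 and 42.4 CPM against 32.0 and 30.6 CPM. Both were below all 3 controls and fell without non-targeting replicate 1, by 0.71 (SE 0.12, adjusted p = 0.00143, edgeR) and by 0.54 (SE 0.11, adjusted p = 0.00969) on the log2 scale. With all libraries the values were -0.75 and -0.74 and neither gene was called. The cathepsin genes CTSA and CTSD were above all controls at 0.27 and 0.26 and were not called. Of 25 tested lysosomal genes, 14 were above 0, and the guide 1 libraries stood wholly above the controls for 9 and wholly below for 4, beside 11.3% and 10.3% of all genes. In the autophagy list 16 of 21 tested genes were above 0 with all libraries, with a median of 0.04. Without non-targeting replicate 1, 15 were above 0 with a median of 0.05, and TP53INP1, the 1 member called, fell. It was at 308, 215 and 198 CPM in the controls and 166 and 163 CPM with guide 1, with a log2 fold change of -0.33 (-0.55 with all libraries). INSIG1, which holds the sterol sensor in the endoplasmic reticulum, fell by 0.41 in the fit without non-targeting replicate 1 (-0.49 with all libraries). It was the 1 of 24 cholesterol synthesis genes called, beside 0.584% of all genes.

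Genes of G2 and mitosis lay low with guide 1 without any call. Of 20 tested, 19 were below 0 with a median log2 fold change of -0.22, and -0.16 without non-targeting replicate 1. For 9 members the guide 1 libraries lay below every control, beside 10.3% of all genes, and for 0 above. CCNB2, a mitotic cyclin, was at 38.9, 31.6 and 35.3 CPM in the controls and 26.9 and 27.5 CPM with guide 1 (log2 -0.38, SE 0.14). AURKA, a mitotic kinase, was at 52.9, 47.2 and 50.7 CPM against 39.4 and 41.2 CPM (log2 -0.32, SE 0.13). For the kinase gene CDK1 the value was -0.49 (SE 0.19), and -0.25 without non-targeting replicate 1, which was its highest control at 44.6 CPM. Among 24 tested kinetochore and centromere genes NDC80 fell without that replicate (-0.71, SE 0.17, adjusted p = 0.0426, edgeR), from 16.1, 14.4 and 13.4 CPM to 7.98 and 9.06 CPM; with all libraries it had -0.78 (SE 0.18). CENPH, of the inner kinetochore, was at 8.30, 5.04 and 4.09 CPM against 2.17 and 2.62 CPM and was not called in either fit.

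Glycolysis and hypoxia genes lay mostly above 0 with all libraries, 20 of 24 with a median of 0.12 and 0 called. Without non-targeting replicate 1 the median was 0.04, with 14 of 24 above 0. Heat shock genes lay below 0 for 15 of 20, with a median of -0.08, or -0.04 without non-targeting replicate 1, and 0 called; HSPH1, a large cytosolic chaperone, was at 83.6, 70.9 and 56.3 CPM without and 48.9 and 49.8 CPM with guide 1. Lists of p53 targets, interferon response and mitochondrially encoded genes had 0 called with all libraries, and without non-targeting replicate 1 the p53 target TP53INP1 was the 1 called.

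**Figure D4:**
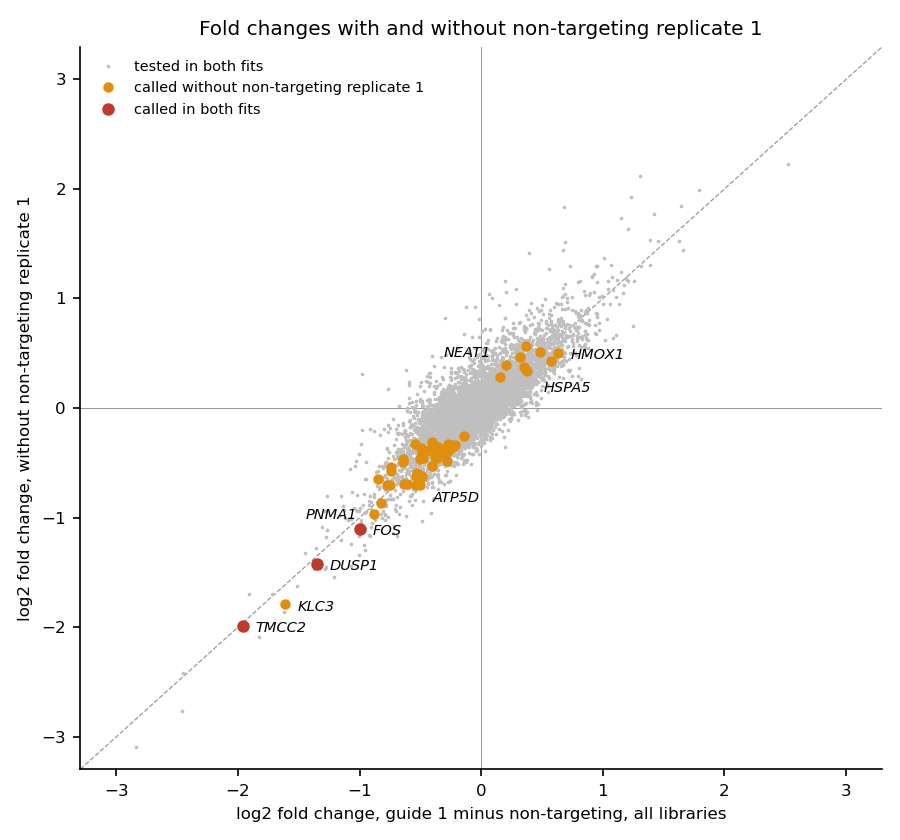
Log2 fold change, guide 1 minus non-targeting, with all libraries (horizontal axis) and without non-targeting replicate 1 (vertical axis) for the 10107 genes tested in both fits. Red points are called in both fits and orange points without non-targeting replicate 1 alone; TMCC2, KLC3, DUSP1 and FOS are the called genes with the lowest values on the vertical axis.

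Whether a change was particular to guide 1 was tested as guide 2 minus guide 1. With all libraries 0 genes were called by edgeR, while 292 (2.86%) had an unadjusted p under 0.05. Non-targeting replicate 1 bears on this comparison through the shared spread, the scaling and the filter. Without it 32 of 10107 genes were called (0.317%), 18 higher (0.178%) and 14 lower (0.139%) with guide 2. DUSP1 was at 117 and 137 CPM with guide 2, within the range of the controls, and differed from guide 1 by 1.25 on the log2 scale (SE 0.20, 95% interval 0.83 to 1.67, adjusted p = 0.156, edgeR). Without non-targeting replicate 1 the difference was 1.25 (SE 0.13, adjusted p = 1.02e-07). PNMA1 was at 80.1 and 106 CPM with guide 2 and differed by 0.75 (SE 0.15, adjusted p = 0.854), and by 0.75 (SE 0.10, adjusted p = 5.21e-05) without that replicate. Of the 59 genes, 12 were called in this comparison, which uses again the guide 1 libraries that chose them. TMCC2 and FOS were not: the guides differed by 0.13 at TMCC2 (95% interval -0.13 to 0.39) and by 0.11 at FOS (95% interval -0.20 to 0.43), with FOS at 67.3 and 69.7 CPM with guide 2. The comparisons of the 2 guides with the non-targeting group share their controls. The guides also differed in how library deviations followed transcript GC content (Spearman 0.08 and -0.32 with guide 2, 0.42 and 0.28 with guide 1). The part of GC content in the differences between the guides was not tested.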

How the data were processed

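RNA from HUDEP-2 cells was measured in 7 libraries made with Smart-seq2 and Nextera indexing, per the labels' protocols; this chemistry marks no strand and carries no molecular identifiers, so antisense genes that overlap share reads, and copies made by PCR count as reads. The authors deposited raw read counts for 32738 genes, 1 column per library, without scaling, per the file headers. STAR and the build GRCh37 (hg19) are named in the submitters' processing notes. Which program and annotation gave the counts, and how reads with more than 1 alignment were treated, is not given in the sources used here.

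The test was edgeR's quasi-likelihood test (version 4.0.16, under R 4.3.3). The filter filterByExpr, at a minimum count of 10, left 10212 genes, or 10107 without non-targeting replicate 1. Libraries were scaled by TMM, and 1 model with a term for group took in all 7 libraries (4 residual degrees of freedom) or 6 (3 degrees). Tests were two-sided and adjusted by Benjamini-Hochberg over all genes tested, with a call at 0.05. Limits of 95% intervals come from the same fit. Alternatives were other scalings, filters and tests (DESeq2 1.42.0, limma 3.58.1), fewer libraries, a replicate block and offsets for transcript GC content. The scripts were tested on simulated counts.

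The members, the 29 gene lists and 7 marker lists were chosen with earlier results of these data known. The rule named TMCC2, FOS and DUSP1, every gene called with all libraries, up to 12 genes per direction called without non-targeting replicate 1, up to 8 per direction by unadjusted p with all libraries, up to 4 per list, and all tested immediate early genes and MAP kinase phosphatases. Genes picked by p needed a mean of 5 CPM, and those picked outside the lists also groups that do not overlap. Genes named beyond it were chosen after their values were seen: CTSD, TRIB3, CHAC1, and the further genes that differed between the guides. Of the list members, 6 older symbols were matched by hand and 9 were not analysed here; 1 marker list is not reported here.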

Additional observations from a re-analysis of the deposited data

Results flagged for a closer look

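Of the 59 genes called with guide 1 without non-targeting replicate 1, 12 also differed between the guides in that fit (edgeR quasi-likelihood test of guide 2 minus guide 1, adjusted p under 0.05); with all libraries 0 of them did. The 59 were chosen on guide 1 libraries that this comparison uses again, so neither the count nor its direction is independent of that choice. On the log2 scale, guide 2 minus guide 1 was 1.25 for DUSP1, 0.75 for PNMA1, 0.70 for CCDC117, 0.62 for AKIRIN1, 0.62 for ZFAND5, a zinc finger protein that binds ubiquitin, 0.58 for RGCC, a regulator of the cell cycle, 0.56 for CREG1, 0.41 for TMOD1, 0.38 for DAP, 0.37 for KLHL21, an adaptor of a ubiquitin ligase, and 0.35 for TP53INP1. It was -0.40 for TSC22D3, a glucocorticoid-induced leucine zipper gene, which rose with guide 1: its levels were 134, 148 and 132 CPM in the non-targeting libraries, 165 and 191 CPM with guide 1, and 139 and 130 CPM with guide 2. ZFAND5 was at 116, 93.0 and 81.3 CPM in the non-targeting libraries, 57.0 and 67.0 CPM with guide 1, and 82.8 and 107 CPM with guide 2. CCDC117 was at 60.8, 45.9 and 38.5 CPM in the non-targeting libraries, 26.7 and 27.2 CPM with guide 1, and 35.4 and 51.8 CPM with guide 2, so guide 2 overlapped the controls. Why the guides differed was not tested, nor was the part of transcript GC content, which the guide 1 and guide 2 libraries followed differently.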

How the results depend on the processing

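The fit of all libraries and its alternatives made 18 settings, some of which leave out 1 library or the guide 2 libraries. TMCC2 was called in 18 of them, FOS in 14 and DUSP1 in 15. The lowest adjusted p of FOS, 3.13e-11, was that of the fit without non-targeting replicate 1, against 0.0111 with all libraries (edgeR). The 3 calls became 19 with no filter on low counts (1 higher and 18 lower), 6 with DESeq2 (all lower), 19 with GC content offsets (3 higher and 16 lower), 59 when non-targeting replicate 1 was dropped; a replicate block left 2; over single libraries left out the count ran from 1 to 59, the higher calls from 0 to 10 and the lower calls from 1 to 49. All 19 calls with GC content offsets were among the 59. DUSP1 lost its call with total counts in place of TMM (adjusted p = 0.131, edgeR) and FOS with the block (adjusted p = 0.251). Without non-targeting replicate 1 the 59 calls became 93 without the guide 2 libraries (78 of them lower), 79 with a replicate block (46 of the 59 shared, without DDIT3, HMOX1, XK, HBE1, HBG2, NDC80, TSC22D3 and FAM129A among others), 54 with DESeq2 and 76 with GC content offsets; with 1 more library left out the count ran from 12 to 47, the higher calls from 0 to 3 and the lower calls from 10 to 47. In those fits some groups had 1 library, assumed to vary like the rest. Leaving out non-targeting replicate 1 also took guide 2 minus guide 1 from 0 to 32 calls, 18 higher and 14 lower. The replicate numbers are not stated to mark a shared culture, day or batch, so they were not taken as pairs. Deviations of same-numbered libraries had correlations of -0.08 and -0.04. With 2 guide 1 libraries, whose deviations mirror each other, these values cannot decide whether the numbers mark pairs. The median of ATF4 targets ran from 0.15 to 0.22 over 15 alternatives to the fit of all libraries, that of G2 and mitosis from -0.29 to -0.16, and that of immediate early genes from -0.10 (GC content offsets) to 0.02. Under the block DUSP14 changed sign in the fit of 6 libraries (0.058), as did CA2 (0.075), which lay near 0 and also changed sign there with total counts (0.014) and over libraries left out (-0.050 to 0.029). Genes of low level rest on few reads, such as 16 and 20 for KLC3 with guide 1, and have wide errors.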

Other observations

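Long noncoding RNAs of the nucleus and hosts of small nucleolar RNAs lay high with guide 1 in the second fit. Of 12 tested, 10 were above 0 without non-targeting replicate 1, with a median log2 fold change of 0.25 (0.12 with all libraries). For 7 of them the guide 1 libraries stood above both remaining controls, against 19.4% of all genes, and NEAT1 was called. NEAT1 was at 290, 210 and 200 CPM in the non-targeting libraries and at 242 and 297 CPM with guide 1, and non-targeting replicate 1 was as high as guide 1.

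G1 and S phase genes had a median of -0.03 over 20 tested, with the guide 1 libraries below every control for 7 and above for 0, beside 10.3% and 11.3% of all genes, and 0 called; the median was -0.06 without non-targeting replicate 1. TYMS, the thymidylate synthase gene, was at 15.0, 11.6 and 12.1 CPM in the controls and 6.70 and 9.90 CPM with guide 1. NRF2 targets had a median of 0.02 over 22 tested, and -0.04 without non-targeting replicate 1, with HMOX1 called in the second fit, and interferon response genes a median of 0.13 over 16 tested (0.09 in the second fit), with IFIH1, a sensor of double-stranded RNA, at 6.98, 7.84 and 6.14 CPM against 3.55 and 4.20 CPM and not called. Genes of chromatin condensation and enucleation had a median of -0.03 over 19 tested, and progenitor genes -0.13 over 11 tested, which was -0.04 without non-targeting replicate 1.

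Markers of some other cell types were compared by their summed levels. Mast cell and basophil markers summed to 21.1 to 24.7 CPM of the library total in the non-targeting libraries against 20.2 to 22.4 CPM with guide 1, and markers of fibroblasts, stroma and endothelium to 9.02 to 11.6 CPM against 9.76 to 10.7 CPM. For 9 markers of the HEK293T line used to package virus the sums were 2421 to 2853 CPM against 2455 to 2497 CPM, with 8 of the 9 under 1 CPM; nearly all of each sum was CA2, a carbonic anhydrase that red cells also make. The part of these cell types in the results was not tested.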
